A study of Mus musculus with 12 samples.

Results

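The genes described here are 32 markers of macrophages and monocytes, the phagocytes of the mononuclear lineage, in heart muscle of mice with and without myocardial infarction (MI). They were taken by gene symbol, and all 32 were matched to Ensembl identifiers among the 56647 gene rows with a value in every library. The tissue was labelled myocardial tissue of wild-type mice, and RNA was read from transcript 3′ ends with a modified CEL-Seq2 protocol. The 3 sham vehicle mice carried labels of sham and of vehicle treatment. The 3 MI mice had the left coronary artery ligated, and their labels name neither a vehicle nor a local delivery. The 4 NECA-treated MI mice received NECA, an analogue of adenosine that resists breakdown and acts on adenosine receptors, delivered locally into the infarcted myocardium. An effect of NECA therefore cannot be told apart from one of its delivery. The labels used here give no strain, age, sex or time between ligation and sampling. For MI mice 2 and 3 a deep 1st and a shallower 2nd library exist, and the 2nd was used in the tests, so that every mouse entered with 1 library of similar depth.

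Macrophages of the adult heart have more than 1 origin. Resident macrophages settle before or soon after birth, renew themselves largely in place, and carry scavenger and clearance receptors. After a coronary artery is blocked, monocytes leave marrow and spleen, enter the injured wall by way of the chemokine receptor encoded by Ccr2, and become macrophages that clear dead muscle and shape the scar. Ligands that sustain the lineage act on the receptor encoded by Csf1r, and signals from Fc receptors and integrins pass through the adaptors encoded by Fcer1g and Tyrobp. The transcription factor PU.1, encoded by Spi1, binds near the start sites of many genes of the lineage at a purine-rich element, the PU box. The 32 genes are grouped by these roles into 8 macrophage-wide genes, 6 genes of recruited monocytes and their early descendants, 6 receptors and adaptors, 8 genes of resident macrophages, and 4 genes of leukocytes in general. Single groups are not exclusive: Itgam and Itgb2 are also made by neutrophils, and Apoe and Gas6 by other heart cells. Recruited and resident are names of gene lists here, and genes of either list, such as Fcgr1, Cd14 and F13a1, need not be limited to the cells that the list is named for.

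The PU box core, GAGGAA, is shown in its promoter context for members whose levels are described below, because members of each of the 5 groups hold it and PU.1 is itself a member. Sequences come from RefSeq on the build GRCm38.p6, which is not the build of the counts, and cover 250 bases before to 50 bases after each annotated start. Each line gives 26 bases read 5′ to 3′ on the strand named, with the core in capitals. The receptors Itgam and Fcgr3, the macrophage-wide Cd68 and the leukocyte-wide Laptm5 are shown first, followed by the recruited genes Fcgr1 and Plac8 and the resident genes Mrc1, F13a1 and Cbr2.
Itgam (chr7:128062546-128062571, plus strand): ttttctcccgGAGGAAggctacagag
Cd68 (chr11:69666380-69666405, minus strand): tcttaccaatGAGGAAagggcttccc
Fcgr3 (chr1:171059394-171059419, plus strand): actacaaaaaGAGGAAggaaatggac
Laptm5 (chr4:130913268-130913293, minus strand): gaacaaaaaaGAGGAAgccacaggct
Fcgr1 (chr3:96294009-96294034, plus strand): gattagaaaaGAGGAAggaagttgcc
Plac8 (chr5:100572336-100572361, minus strand): gaattgtaagGAGGAAaaccctattt
Mrc1 (chr2:14229369-14229394, minus strand): aaggaggacaGAGGAAgctgtccctt
F13a1 (chr13:37050295-37050320, minus strand): gaagctacagGAGGAAgagaggataa
Cbr2 (chr11:120732085-120732110, minus strand): gctacccttgGAGGAAgcgggtcatg
On either strand, GAGGAA lay in a window of 15 of the 26 members with an entry, or 57.7%, against 31.3% of 27025 genes with windows of the same length. Among resident members it lay in 4 of 8, and among the other members in 11 of 18. The longer form GAGGAAGT, which contains the core, lay in 3 of 26 members, or 11.5%, against 3.69% of all genes. A match describes the letters in the window and is not a measured binding site. Csf1r, Spi1, Itgb2, Cd14, Adgre1 and Tyrobp had no entry.

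The 10 libraries in the tests held 0.96 to 1.3 M counts (M, 1e6), against 30.7 M in the 1st library of MI mouse 2 and 27.1 M in that of MI mouse 3. Levels are given as CPM, the counts of a gene per 1e6 counts of the library, so that 3 counts, the limit that a count of 0 allows, were at most 3.13 CPM. In the smallest library 10 counts were 10.4 CPM with an exact 95% interval of 4.996 to 19.2 CPM, which covers counting error only. The tissue label was matched by 9 heart muscle genes, which together made 48582 to 69456 CPM in every mouse. A pair of libraries stood apart within their groups. Sham vehicle mouse 3 held all 4 atrial markers at a summed 6424 CPM (120 and 179 CPM in the other sham vehicle mice), with the defining atrial genes Myl7 and Sln at 785 and 285 CPM. It also held 8 of 10 T and NK cell markers at a summed 44.0 CPM, against 0.752 to 12.7 CPM in the other 9 mice, and all 5 fat cell markers at a summed 1202 CPM, against 340 to 730 CPM, with Adipoq and Cfd at 108 and 478 CPM. MI mouse 3 had the highest sum of 8 fibroblast markers, 11197 CPM, against 2002 and 1232 CPM in MI mice 1 and 2, and 3831 CPM of atrial markers, all of it Nppa, a natriuretic peptide gene that strained ventricle also expresses.

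Most of the mononuclear phagocyte genes had higher mean levels in infarcted than in sham vehicle hearts, but none passed the threshold, an adjusted p of 0.05, in any of 4 comparisons. The group mean exceeded the sham vehicle mean for 28 of 32 members in MI mice and for 29 of 32 in NECA-treated MI mice. In whole tissue, fewer cells of a type and less RNA per cell cannot be told apart, and the same holds for more of either. A count filter kept 22 members for testing; because it asks for about 10 counts in as few as 3 libraries, members could pass through 1 group alone, and counts over the 22 are a description. Itgam, encoding the CD11b integrin chain, had the largest difference, with a log2 fold change of 3.01 ± 0.77 (SE) in MI and 3.02 ± 0.74 in NECA-treated MI against sham vehicle. All comparisons against sham vehicle share the same 3 mice, so their values are not independent of each other.

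**Figure D1:**
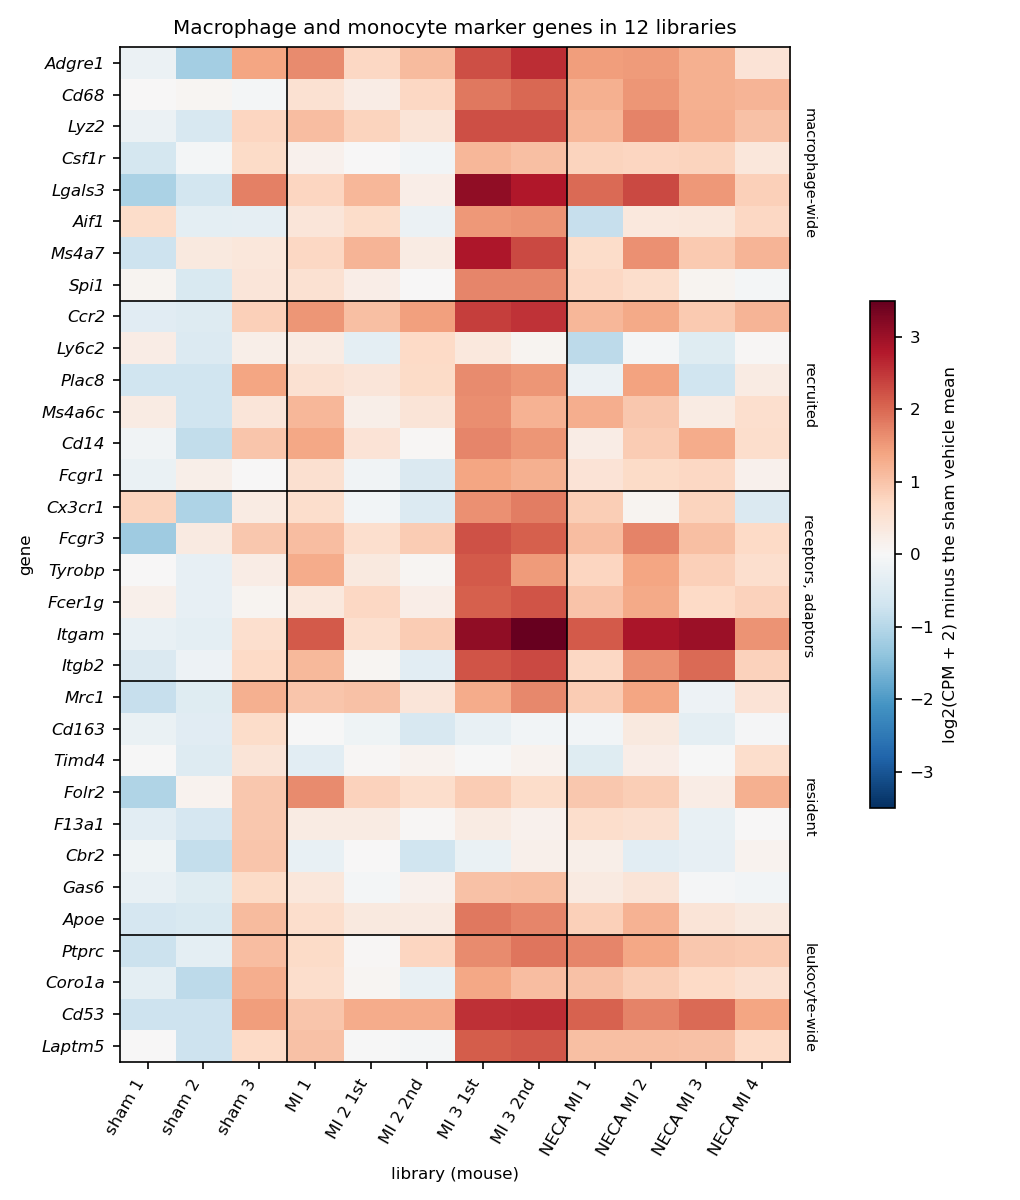
Level of each of the 32 marker genes (rows, grouped by role) in each of the 12 libraries (columns), as log2(CPM + 2) minus the mean of the 3 sham vehicle mice, on a colour scale from blue (lower) to red (higher). Red is deepest in both libraries of MI mouse 3, sham vehicle mouse 3 is red in most rows, and the resident rows are paler than the rows of receptors and adaptors.

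In the edgeR quasi-likelihood test with Benjamini-Hochberg adjustment, 0 of the 22 members passed an adjusted p of 0.05 in MI against sham vehicle, where 0.0736% of all 9505 genes did, and the smallest adjusted p of a member was 0.247. At an unadjusted p under 0.05, 11 members were higher and none was lower, and 6.18% of all genes were higher at that level. The median log2 fold change of the 22 was 1.16, against -0.01 for all genes tested, and 19 were higher. The levels of the MI mice all lay above those of the sham vehicle mice for 3 of the 22 members (Itgam, Cd68 and Fcer1g), as for 7.72% of all genes tested. With the members under the count filter (Ccr2 and Ms4a6c) this held for 5 of 32. No share was computed over genes under the filter in any comparison. Such ranges use CPM of the library total, without the TMM scaling between libraries that the tests apply. DESeq2 called 1 member, Itgam, with an adjusted p of 0.0343, among 13 genes in all. Without the count filter, where 191 of 20308 genes passed, edgeR called 6 members, Itgam, Adgre1, Laptm5, Lyz2, Ccr2 and Fcgr3. Without sham vehicle mouse 3, edgeR called 3 members, Adgre1, Ccr2 and Cd53, among 50 genes in all, and without MI mouse 2 it called Itgam (adjusted p = 0.0446) among 6. With fewer sham vehicle mice the count filter asked for fewer libraries, which let in Ccr2, and Cd53 had 0 counts in the remaining sham vehicle mice. Without MI mouse 3 the median of the 22 was 0.55.

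Against the same sham vehicle mice, 0 of 22 members passed in the NECA-treated MI mice in edgeR (smallest adjusted p = 0.573), where 0.0105% of all genes did. At an unadjusted p under 0.05, 10 members were higher and none lower, against 3.06% of all genes higher. The median log2 fold change was 0.94, with 20 of 22 higher. All 4 NECA-treated mice lay above all sham vehicle mice for 6 of the 22 members (Cd68, Lyz2, Tyrobp, Fcer1g, Itgam and Itgb2), as 5.12% of all genes did, and for 8 of 32 with Ms4a7 and Ccr2. DESeq2 called 0 members, and edgeR without the count filter called Itgam and Lyz2 among 43 of 20308 genes. Itgam was also called by edgeR without MI mouse 3, with an adjusted p of 0.0136, among 7 genes.

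With the infarcted groups joined and set against sham vehicle, 0 of 22 passed in edgeR (smallest adjusted p = 0.240), where 0.105% of all genes did. At an unadjusted p under 0.05, 11 were higher and none lower, against 4.89% of all genes higher. In CPM, the 7 infarcted mice all lay above the 3 sham vehicle mice for 3 of the 22 (Cd68, Fcer1g and Itgam), as for 2.16% of all genes tested, and for 4 of 32 with Ccr2. With TMM scaling Fcer1g no longer did so. Such scaling also parted groups that overlapped in CPM, as for Fcgr3 in MI and for Laptm5 and Cd53 in NECA-treated MI, each against sham vehicle. DESeq2 called 2 members, Itgam (adjusted p = 0.0126) and Lyz2 (adjusted p = 0.0268), among 18 genes in all. Without the count filter edgeR called 9 members among 137 of 20308 genes, the 6 of the MI comparison with Itgb2, Cd68 and Cd53. Leaving out single mice, edgeR called Adgre1 and Cd53 among 27 genes without sham vehicle mouse 3, and Itgam among 7 genes without MI mouse 2 and among 11 without MI mouse 3.

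Among receptors and adaptors, all 5 members tested were higher in both infarcted groups, with log2 fold changes of 1.17 to 3.01 in MI and 1.02 to 3.02 in NECA-treated MI. Itgam encodes the chain that, paired with the product of Itgb2, forms complement receptor 3 and lets phagocytes adhere and ingest opsonised particles. Itgam was at 1.72, 1.503 and 4.72 CPM in the sham vehicle mice, at 17.8, 6.17 and 47.9 CPM in the MI mice, and at 17.5, 30.1, 33.4 and 11.3 CPM in the NECA-treated mice. Every infarcted mouse was above every sham vehicle mouse, and MI mouse 2 was the lowest of them. The deeper 1st library of that mouse gave 4.72 CPM from 145 counts, level with sham vehicle mouse 3. The mean was 2.64 ± 1.80 (SD, n = 3) in sham vehicle, 24.0 ± 21.6 (SD, n = 3) in MI and 23.1 ± 10.4 (SD, n = 4) in NECA-treated MI. Its adjusted p was 0.247 in MI and 0.596 in NECA-treated MI against sham vehicle, and the fold change stayed between 2.16 and 3.61 on the log2 scale when single mice were left out of the MI comparison.

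Itgb2, encoding the shared CD18 chain, was at 2.57, 3.76 and 8.64 CPM in sham vehicle, 12.4, 3.09 and 30.2 CPM in MI, and 8.75, 17.9, 24.0 and 9.42 CPM in NECA-treated MI. MI mouse 2 lay within the sham vehicle range, while all 4 NECA-treated mice lay above it. The log2 fold change was 1.47 ± 0.66 (SE) in MI (adjusted p = 0.404) and 1.51 ± 0.61 in NECA-treated MI (adjusted p = 0.820). Without MI mouse 3 the MI value was 0.66.

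Fcer1g and Tyrobp encode the small adaptors whose cytoplasmic tyrosine motifs recruit the kinase Syk. Fcer1g was at 6.003, 3.76 and 5.50 CPM in sham vehicle, 7.11, 6.17 and 30.2 CPM in MI, and 11.9, 15.5, 9.41 and 10.4 CPM in NECA-treated MI. In CPM neither infarcted group overlapped the sham vehicle mice, but MI mice 1 and 2 exceeded the highest sham vehicle mouse by little. With TMM scaling (factor 0.889 in sham vehicle mouse 1 and 0.939 in MI mouse 2), MI mouse 2 fell below sham vehicle mouse 1. The ranges of MI and sham vehicle mice then overlapped. That overlap rests on 6 counts in MI mouse 2, whose 1st library gave 9.56 CPM from 294 counts, above every sham vehicle mouse in CPM. The log2 fold change of Fcer1g in MI was 1.37 ± 0.50 (SE, adjusted p = 0.305) and was 0.38 without MI mouse 3. Tyrobp was at 6.86, 5.26 and 8.64 CPM in sham vehicle, 19.5, 7.20 and 22.9 CPM in MI, and 12.7, 21.1, 13.7 and 11.3 CPM in NECA-treated MI, with a log2 fold change of 1.17 ± 0.39 in MI (adjusted p = 0.260). Only MI mouse 2 among the infarcted mice was within the sham vehicle range of Tyrobp, on 7 counts, and its 1st library gave 9.27 CPM, above that range.

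Fcgr3 encodes a low-affinity receptor for IgG that needs the Fcer1g chain. It was at 1.72, 9.02 and 14.9 CPM in sham vehicle, 16.9, 14.4 and 35.4 CPM in MI, and 16.7, 27.7, 16.3 and 12.2 CPM in NECA-treated MI. In CPM its groups overlapped through sham vehicle mouse 3, while with TMM scaling (factor 1.09 in that mouse) the MI mice all lay above the sham vehicle mice. The log2 fold change of Fcgr3 in MI was 1.26 ± 0.45 (SE, adjusted p = 0.304). Cx3cr1, encoding the receptor for fractalkine, was under the filter, with 45 counts over the 10 mice. Its highest level was 12.5 CPM in MI mouse 3, and the other 9 mice were between 0 and 5.57 CPM.

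All 5 tested macrophage-wide genes had positive log2 fold changes against sham vehicle in both infarcted groups, and between the infarcted groups Adgre1 and Lyz2 were higher in MI and Cd68, Csf1r and Lgals3 in NECA-treated MI, none past the threshold. Cd68 encodes a glycoprotein of the phagocyte lysosome. It was at 4.29, 4.51 and 3.93 CPM in sham vehicle, 7.11, 8.23 and 22.9 CPM in MI, and 12.7, 16.3, 12.8 and 12.2 CPM in NECA-treated MI. No infarcted mouse overlapped the sham vehicle mice, whose SD was 0.29 CPM (n = 3), a spread smaller than the counting error of 5 or 6 counts. The log2 fold change was 1.44 ± 0.45 (SE) in MI (adjusted p = 0.247) and 1.59 ± 0.42 in NECA-treated MI (adjusted p = 0.573), and in MI it was 0.82 without MI mouse 3 (adjusted p = 0.786).

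Lyz2, encoding the lysozyme of myeloid cells, had the most counts of the macrophage-wide genes. It was at 104, 80.4 and 202 CPM in sham vehicle, 256, 164 and 574 CPM in MI, and 269, 405, 292 and 243 CPM in NECA-treated MI. MI mouse 2 was below sham vehicle mouse 3, and the other 6 infarcted mice were above it. The deeper 1st library of MI mouse 2 gave Lyz2 at 205 CPM, just above sham vehicle mouse 3. The log2 fold change was 1.27 ± 0.43 (SE, adjusted p = 0.332) in MI and 1.196 ± 0.41 (adjusted p = 0.820) in NECA-treated MI. Adgre1 encodes F4/80, the adhesion receptor that marks mouse macrophages. It was at 3.43, 0.752 and 14.1 CPM in sham vehicle, 17.8, 11.3 and 35.4 CPM in MI, and 15.1, 15.5, 12.8 and 6.59 CPM in NECA-treated MI. Sham vehicle mouse 3 overlapped both infarcted groups, and without it the log2 fold change in MI moved from 1.72 ± 0.59 (SE, adjusted p = 0.304) to 3.15 (adjusted p = 0.0215).

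Csf1r, the growth factor receptor on which most tissue macrophages depend, differed less between groups. It was at 27.4, 40.6 and 69.9 CPM in sham vehicle, 48.0, 40.1 and 90.6 CPM in MI, and 74.7, 74.0, 75.3 and 57.4 CPM in NECA-treated MI. Its log2 fold change was 0.28 ± 0.26 (SE, adjusted p = 0.692) in MI and 0.57 ± 0.23 (adjusted p = 0.820) in NECA-treated MI, and the MI value was -0.05 without MI mouse 3 and 0.60 without sham vehicle mouse 3. Lgals3 encodes galectin-3, a secreted lectin of activated macrophages that fibroblasts also make. It ranged from 0 to 12.6 CPM in sham vehicle, 3.09 to 28.1 CPM in MI and 5.65 to 19.5 CPM in NECA-treated MI, with a log2 fold change in MI of 1.31 ± 1.10 (SE, adjusted p = 0.677) that was -0.05 without MI mouse 3. Aif1, Ms4a7 and Spi1 were under the filter. Aif1 encodes the actin-binding protein IBA1, Ms4a7 a membrane protein of macrophages, and Spi1 is PU.1 itself. Spi1 was at 3.43, 1.503 and 4.72 CPM in sham vehicle, 5.33, 3.09 and 14.6 CPM in MI, and 6.36, 5.69, 3.42 and 2.83 CPM in NECA-treated MI, so only MI mouse 3 stood clear of the rest.

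**Figure D2:**
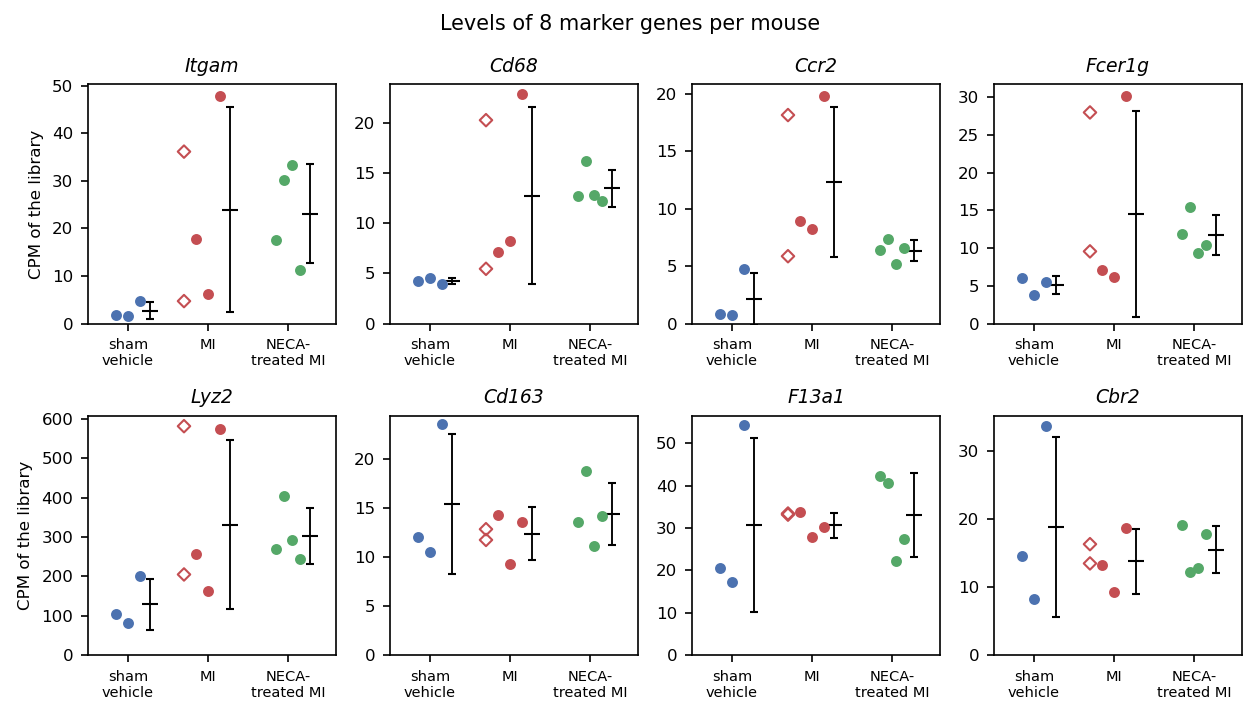
CPM of 8 marker genes in each mouse (filled points), with the group mean and SD as black bars (n = 3, 3 and 4) with open diamonds for the deep 1st libraries of MI mice 2 and 3, which are not in the means. Itgam, Cd68, Ccr2 and Fcer1g have all infarcted points above the sham vehicle points in the libraries tested, and Cd163, F13a1 and Cbr2, the 3 resident genes with negative log2 fold changes in MI, have their highest point in sham vehicle mouse 3; the resident genes with positive values are not plotted.

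Of the 6 genes of recruited monocytes, only Cd14 passed the filter, and the other 5 had 21 to 75 counts each over the 10 mice. Ccr2 encodes the receptor that draws monocytes towards the chemokine CCL2. It was at 0.858, 0.752 and 4.72 CPM in sham vehicle, 8.88, 8.23 and 19.8 CPM in MI, and 6.36, 7.32, 5.13 and 6.59 CPM in NECA-treated MI. The 3 groups formed 3 separate ranges, with NECA-treated mice between sham vehicle and MI mice. That order rests on 6 to 19 counts in each infarcted mouse, and the 1st library of MI mouse 2 gave 5.85 CPM from 180 counts, inside the NECA-treated range. Without the filter, edgeR gave Ccr2 a log2 fold change of 2.39 ± 0.58 (SE, adjusted p = 0.0114) in MI against sham vehicle. The same fit gave -0.88 ± 0.46 for NECA-treated MI against MI (adjusted p = 0.864) and, for the NECA-treated mice against sham vehicle, 1.51 ± 0.59 (adjusted p = 0.630).

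Cd14, encoding a co-receptor for bacterial lipopolysaccharide, was at 2.57, 0.752 and 7.86 CPM in sham vehicle, 10.7, 3.09 and 12.5 CPM in MI, and 3.98, 7.32, 10.3 and 5.65 CPM in NECA-treated MI. All groups overlapped, and the log2 fold change in MI was 1.15 ± 0.63 (SE, adjusted p = 0.467). Ms4a6c, of the same membrane protein family as Ms4a7, lay at 0.752 to 3.93 CPM in sham vehicle, 4.12 to 8.33 CPM in MI and 3.42 to 8.75 CPM in NECA-treated MI. Its MI mice did not overlap the sham vehicle mice, by a gap smaller than 1 count. The 1st library of MI mouse 2 gave Ms4a6c at 3.15 CPM from 97 counts, inside the sham vehicle range. Fcgr1, encoding the high-affinity IgG receptor CD64, lay at 1.72 to 3.01 CPM in sham vehicle, 1.03 to 8.33 CPM in MI and 2.83 to 5.13 CPM in NECA-treated MI. All groups overlapped for Fcgr1, and MI mouse 2, on 1 count, was below every sham vehicle mouse. In the 1st library of that mouse Fcgr1 was at 1.98 CPM from 61 counts, inside the sham vehicle range. Ly6c2, the surface marker of inflammatory monocytes, had 0 to 4 counts in each mouse, and Plac8 0 to 8. For Ly6c2 and Plac8 such counts lie within counting error of each other, so ranges that do or do not overlap carry little information.

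The resident genes did not share a direction. Of the 7 tested in MI against sham vehicle, 4 were higher (Mrc1, Folr2, Gas6 and Apoe) and 3 lower (Cd163, F13a1 and Cbr2), none passed at an unadjusted p of 0.05, and the median log2 fold change was 0.44. Cd163 encodes the scavenger receptor for haemoglobin bound to haptoglobin. It was at 12.01, 10.5 and 23.6 CPM in sham vehicle, 14.2, 9.26 and 13.5 CPM in MI, and 13.5, 18.7, 11.1 and 14.1 CPM in NECA-treated MI. The log2 fold change in MI was -0.37 ± 0.33 (SE, adjusted p = 0.686), and without sham vehicle mouse 3 it was -0.03. F13a1, encoding the transglutaminase chain of factor XIII, was at 20.6, 17.3 and 54.2 CPM in sham vehicle, 33.8, 27.8 and 30.2 CPM in MI, and 42.1, 40.7, 22.2 and 27.3 CPM in NECA-treated MI.

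In CPM F13a1 thus had every infarcted mouse above sham vehicle mice 1 and 2 and below mouse 3. With TMM scaling NECA-treated mouse 3 fell below sham vehicle mouse 1. The log2 fold change of F13a1 in MI was -0.05 ± 0.33 (SE, adjusted p = 0.972) with all mice and 0.53 without sham vehicle mouse 3. Cbr2, a carbonyl reductase, was at 14.6, 8.27 and 33.8 CPM in sham vehicle, 13.3, 9.26 and 18.8 CPM in MI, and 19.1, 12.2, 12.8 and 17.9 CPM in NECA-treated MI. Its log2 fold change in MI was -0.51 ± 0.38 (SE, adjusted p = 0.610) and was 0.10 without sham vehicle mouse 3. Without sham vehicle mouse 3 the sign of F13a1 and Cbr2 turned and Cd163 came close to 0, and without MI mouse 3 F13a1 was at 0.02.

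Mrc1, encoding the mannose receptor, was at 7.72, 10.5 and 37.7 CPM in sham vehicle, 31.1, 20.6 and 52.1 CPM in MI, and 29.4, 42.3, 12.8 and 21.7 CPM in NECA-treated MI. Only 2 infarcted mice exceeded sham vehicle mouse 3, while all 7 exceeded the other sham vehicle mice. Its log2 fold change in MI was 0.81 ± 0.56 (SE, adjusted p = 0.596), 1.71 without sham vehicle mouse 3 and 0.49 without MI mouse 3. Folr2, encoding the folate receptor of tissue macrophages, was at 0.858, 4.51 and 9.43 CPM in sham vehicle, 16.9, 7.20 and 7.29 CPM in MI, and 9.54, 8.95, 5.13 and 12.2 CPM in NECA-treated MI, with a log2 fold change of 1.02 ± 0.55 (SE, adjusted p = 0.461) in MI, 1.74 without sham vehicle mouse 3 and 0.47 without MI mouse 1. Timd4, a receptor for phosphatidylserine on dying cells, had 1 to 4 counts in each mouse.

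Apoe, the lipid carrier apolipoprotein E, was at 202, 213 and 668 CPM in sham vehicle, 475, 383 and 1015 CPM in MI, and 553, 712, 418 and 393 CPM in NECA-treated MI. Only MI mouse 3 and NECA-treated mouse 2 lay above sham vehicle mouse 3, and the log2 fold change in MI was 0.73 ± 0.48 (SE, adjusted p = 0.586), 1.37 without sham vehicle mouse 3 and 0.30 without MI mouse 3. Gas6, a ligand of the receptors with which macrophages take up dying cells, ranged from 101 to 217 CPM in sham vehicle, 149 to 284 CPM in MI and 126 to 185 CPM in NECA-treated MI. Its log2 fold change for NECA-treated MI against MI was -0.38 ± 0.21 (SE, adjusted p = 0.833), the smallest adjusted p of a member in that comparison. Together Apoe and Gas6 supplied most counts of the resident genes, so the group is also given without them.

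The 4 leukocyte-wide genes had positive log2 fold changes in both infarcted groups, but that of Coro1a turned with single mice. Ptprc, encoding the CD45 phosphatase of all nucleated blood cells, was at 3.43, 5.26 and 17.3 CPM in sham vehicle, 12.4, 13.4 and 31.3 CPM in MI, and 27.8, 21.1, 15.4 and 15.1 CPM in NECA-treated MI. Its log2 fold change was 1.03 ± 0.45 (SE, adjusted p = 0.383) in MI and 1.15 ± 0.41 (adjusted p = 0.805) in NECA-treated MI. Cd53, a tetraspanin of leukocytes, had 0 counts in sham vehicle mice 1 and 2 and 7.07 CPM in mouse 3. Cd53 lay at 4.44 to 17.7 CPM in MI and 6.59 to 11.9 CPM in NECA-treated MI. Laptm5, a lysosomal protein of leukocytes, was at 16.3, 9.02 and 27.5 CPM in sham vehicle, 34.6, 15.4 and 80.2 CPM in MI, and 35.8, 35.8, 35.1 and 27.3 CPM in NECA-treated MI (MI log2 fold change 1.196 ± 0.47 (SE), adjusted p = 0.368). Coro1a, an actin regulator shared with lymphocytes, was highest among the sham vehicle mice in mouse 3 at 27.5 CPM, above all infarcted mice in the libraries tested. However, the 1st library of MI mouse 3 gave 29.7 CPM from 805 counts, above that level. The log2 fold change of Coro1a in MI was 0.24 ± 0.46 (SE, adjusted p = 0.880). It was -0.16 without sham vehicle mouse 2, -0.04 without MI mouse 3 and 1.24 without sham vehicle mouse 3.

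Recruited against resident levels were compared in each mouse as the mean of log2(CPM + 2) over the genes of a group, minus the sham vehicle mean. The 6 recruited genes averaged 0.91 ± 0.45 (SD, n = 3) in MI and 0.51 ± 0.24 (SD, n = 4) in NECA-treated MI. The 8 resident genes averaged 0.38 ± 0.32 (SD, n = 3) in MI and 0.32 ± 0.27 (SD, n = 4) in NECA-treated MI. The sham vehicle mice themselves spanned -0.49 to 0.63 for recruited and -0.44 to 0.87 for resident genes, and mouse 3 was the top of both ranges. The resident level of every infarcted mouse was below that of sham vehicle mouse 3 and above those of the other sham vehicle mice. Recruited levels exceeded sham vehicle mouse 3 in MI mice 1 and 3 and in NECA-treated mouse 2. Without sham vehicle mouse 3 the MI averages were 1.23 for recruited and 0.82 for resident genes, and no p was computed for either group.

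**Figure D3:**
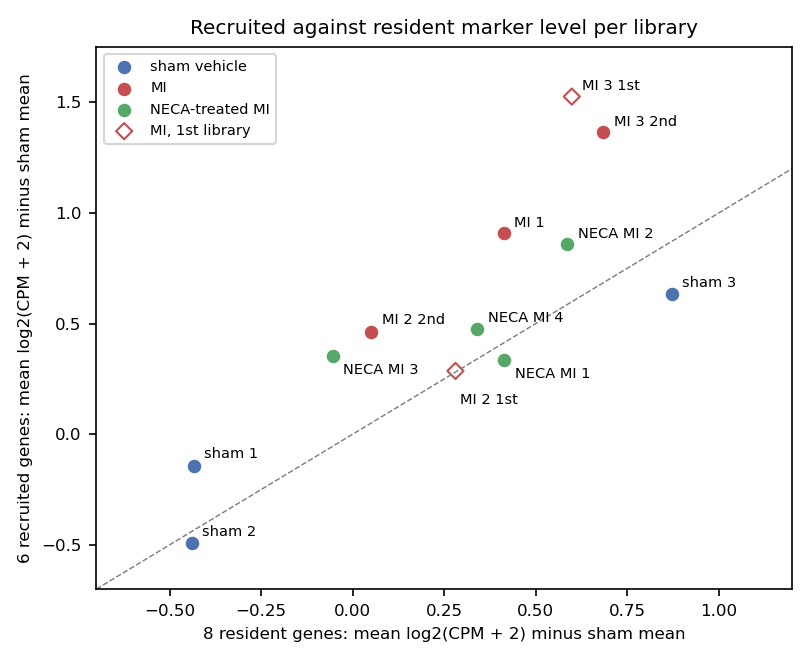
Mean log2(CPM + 2) of the 6 recruited genes (vertical) against that of the 8 resident genes (horizontal), each minus its sham vehicle mean, with 1 point per library; open diamonds are 1st libraries and the dashed line marks equal values. The 3 MI mice lie above the line, sham vehicle mice 2 and 3 and NECA-treated mouse 1 lie below it, and the 1st library of MI mouse 2 lies on it.

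As a ratio of summed CPM, with Apoe and Gas6 left out after their levels were seen, recruited counts were 19.4, 11.6 and 17.0 per 100 resident counts in the sham vehicle mice. The MI mice had 33.9, 31.1 and 47.1, and the NECA-treated mice 20.8, 27.3, 37.7 and 24.3. All infarcted mice were above all sham vehicle mice in this ratio, and the MI and NECA-treated mice overlapped through NECA-treated mouse 3. The deeper 1st libraries gave 18.3 for MI mouse 2, within the sham vehicle range, and 59.4 for MI mouse 3. The recruited sum rests on 8 to 56 counts per library, and the ratio was chosen with the data known, so it was not tested. With Apoe and Gas6 included, the ratio was 1.65 to 2.995 in sham vehicle, 3.89 to 4.88 in MI and 2.85 to 4.04 in NECA-treated MI. NECA-treated mouse 1 then lay below sham vehicle mouse 1, so infarcted and sham vehicle mice overlapped.

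Between NECA-treated and untreated infarcts, no member passed the test. In edgeR 0 of 22 members passed, as for 0% of all genes, and 0 members had an unadjusted p under 0.05 in either direction, against 6.07% of all genes. DESeq2 also called 0 members. Of the 22, 11 were higher and 11 lower, with a median log2 fold change of -0.03 against -0.01 for all genes, and log2 fold changes ran from -0.72 for Adgre1 (SE 0.50, adjusted p = 0.853) to 0.29 for Csf1r (SE 0.23, adjusted p = 0.866). No tested member had NECA-treated mice all below MI mice, as 3.23% of all genes did, and of the 10 members under the filter Ccr2 and Ly6c2 did in the libraries tested. Neither separation held with the 1st library of MI mouse 2, where Ccr2 (5.85 CPM) and Ly6c2 (0.976 CPM) lay inside the NECA-treated ranges, and no share was computed over genes under the filter. These values leaned on single MI mice: the median was 0.37 without MI mouse 3, with 17 of 22 higher, and -0.39 without MI mouse 2. For Itgam the log2 fold change of 0.02 ± 0.52 (SE) became 0.87 without MI mouse 3. A p that misses the threshold does not show that NECA-treated and untreated infarcts were alike, and SEs of 0.21 to 0.89 on the log2 scale left room for differences of that order.

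**Figure D4:**
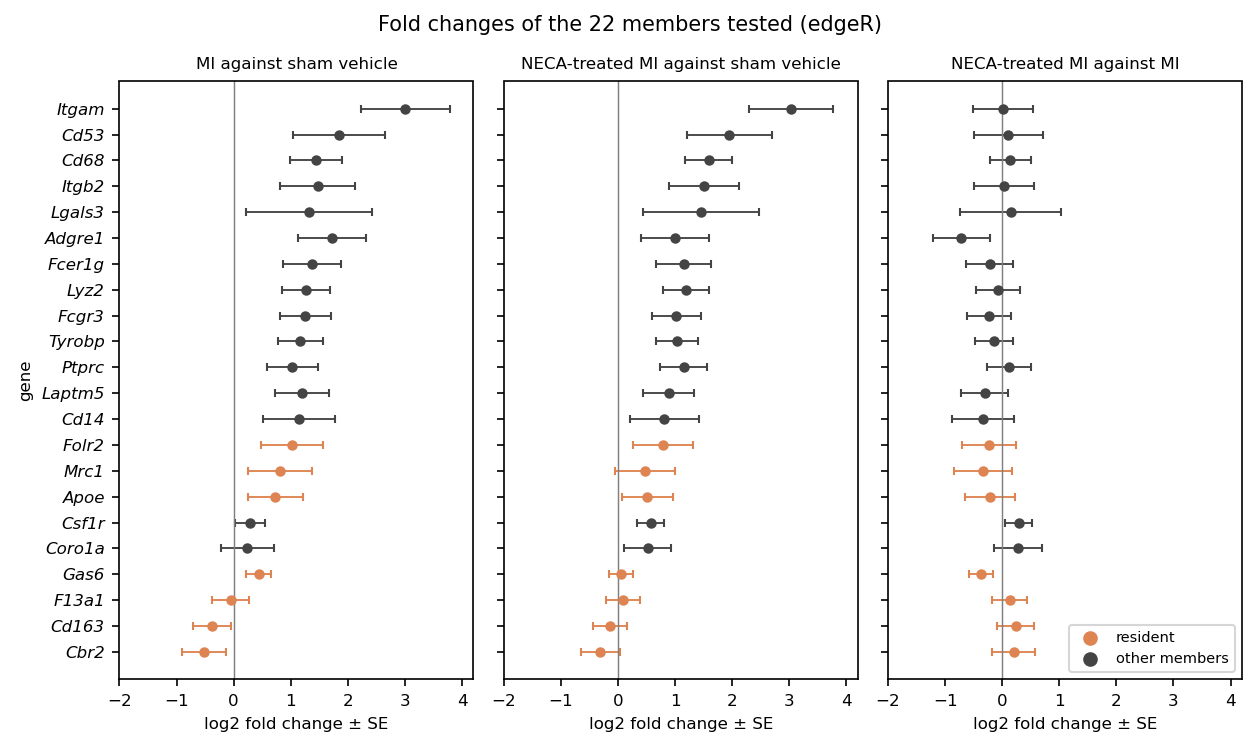
edgeR log2 fold change ± SE of the 22 members tested in 3 comparisons, with resident genes in orange and the other members in dark grey; the vertical line marks no difference. Most dark points lie right of the line against sham vehicle, with Itgam farthest at 3.01 and 3.02, while all points of NECA-treated MI against MI lie between -0.72 and 0.29.

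Mice of 1 group differed from each other in most members at once. MI mouse 3 was the highest of the MI mice for 28 of 32 members, and sham vehicle mouse 3 the highest of its group for 26 of 32. Among NECA-treated mice, mouse 2 was the highest for 15 members and mouse 4 the lowest for 17. The sum over all 32 members was 545 to 1510 CPM in sham vehicle, 946 to 2603 CPM in MI and 1097 to 1804 CPM in NECA-treated MI, so the groups overlapped. The 8 fibroblast markers, all of them detected in every mouse, also had a higher mean sum in both infarcted groups than in sham vehicle. Their association with the members across mice was not tested. Their sum was 551 to 1707 CPM in sham vehicle, 1232 to 11197 CPM in MI and 1357 to 4549 CPM in NECA-treated MI. The 7 B cell markers summed to 5.26 to 226 CPM, 55.2 to 1242 CPM and 8.56 to 685 CPM in the same order. The part of fibroblast, B cell, T cell, fat and atrial transcripts in the members' values was not tested. Neutrophils share Itgam and Itgb2, and their part in those values was not tested either. The neutrophil gene Ly6g had 0 counts in all 10 mice, S100a9 reached 4.88 CPM at most, and the 10 neutrophil markers summed to 5.26 to 9.43 CPM in sham vehicle, 5.15 to 10.4 CPM in MI and 0 to 12.2 CPM in NECA-treated MI. The 10 dendritic and mast cell markers summed to 3.76 to 12.6 CPM in sham vehicle, 7.20 to 22.2 CPM in MI and 4.88 to 11.1 CPM in NECA-treated MI, with Ms4a2 at 0 throughout.

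Genes that work with the members were tested in the same fit. Of 6 genes of macrophage growth factors and their receptors, 3 were tested and none passed in any comparison. Csf1, the ligand of Csf1r, had a log2 fold change of -0.31 ± 0.19 (SE, adjusted p = 0.541) in MI against sham vehicle, and Csf2rb, the shared chain of the receptor for GM-CSF, had 1.19 ± 0.63 (adjusted p = 0.454). Of 14 genes that carry or restrain signals of Fcer1g and Tyrobp, 6 were tested, all 6 were higher in MI and none passed. Sirpa, the inhibitory receptor for CD47, had 0.55 ± 0.25 (SE, adjusted p = 0.400) in MI, and Inpp5d, a lipid phosphatase that dampens Fc receptor signals, had 0.57 ± 0.42 (adjusted p = 0.599). Of 9 transcription factors, 6 were tested and 4 were higher in MI, with none past the threshold. Irf8, which directs monocyte development with PU.1, had 1.56 ± 0.52 (SE, adjusted p = 0.248) in MI and 0.98 ± 0.51 (adjusted p = 0.837) in NECA-treated MI, and Maf had 0.73 ± 0.35 (adjusted p = 0.412) in MI. The median log2 fold changes of these 3 lists in MI were 0.17, 0.41 and 0.38, against 1.16 for the 22 members and -0.01 for all genes.

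None of the further markers of recruited and resident cells, outside the 32, passed the threshold. Of 15 further genes of recruited monocytes and their descendants, 10 were tested and all 10 were higher in MI, with a median log2 fold change of 1.71. The 8 fibroblast markers had a median of 2.20 in the same comparison. The part of fibroblasts and other cells in the values of these further genes was not tested. Hmox1, which degrades haem, had 1.29 ± 0.42 (SE, adjusted p = 0.247) in MI and 1.36 ± 0.39 (adjusted p = 0.604) in NECA-treated MI. Arg1, encoding arginase, had 3.76 ± 1.73 (adjusted p = 0.417) in MI, Gpnmb 1.53 ± 0.73 (adjusted p = 0.412) and S100a4 1.88 ± 0.59 (adjusted p = 0.247), and fibroblasts also make S100a4. Of 12 further resident genes, 8 were tested and 7 were higher in MI, with a median of 0.51. The complement genes C1qa, C1qb and C1qc had 0.84 ± 0.38 (SE, adjusted p = 0.417), 1.04 ± 0.45 (adjusted p = 0.412) and 0.56 ± 0.34 (adjusted p = 0.541) in MI, and Selenop, a selenium transport protein, had 0.46 ± 0.18 (adjusted p = 0.344). In NECA-treated MI against MI, 4 of the 10 recruited and 1 of the 8 resident genes were higher, with medians of -0.07 and -0.17.

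The repeated libraries of MI mice 2 and 3 were compared as a check on these levels. The 407 rows that lack some values have them either in both 1st libraries or in all the other libraries, so these may have been counted with different annotations, and a difference between the libraries of a mouse need not come from depth alone. For MI mouse 2, the CPM of the 1st library fell inside the exact 95% interval of the 2nd library for 29 of 32 members, with Lyz2, Ly6c2 and Mrc1 outside. For MI mouse 3 it did so for 30 of 32, with Tyrobp and Apoe outside. The 1st libraries held 30 to 11924 counts per member in mouse 2 and 46 to 29810 in mouse 3. Of the members outside in mouse 2, Mrc1 was lower in the 2nd library (20.6 CPM) than in the 1st (32.2 CPM), and Ly6c2 was higher (4.12 and 0.976 CPM). The 1st libraries, with far more counts, also set MI mouse 2 below MI mouse 3 for Itgam, at 4.72 and 36.2 CPM, and for Ccr2, at 5.85 and 18.1 CPM, but not for Cd163, at 12.8 and 11.7 CPM.

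**Figure D5:**
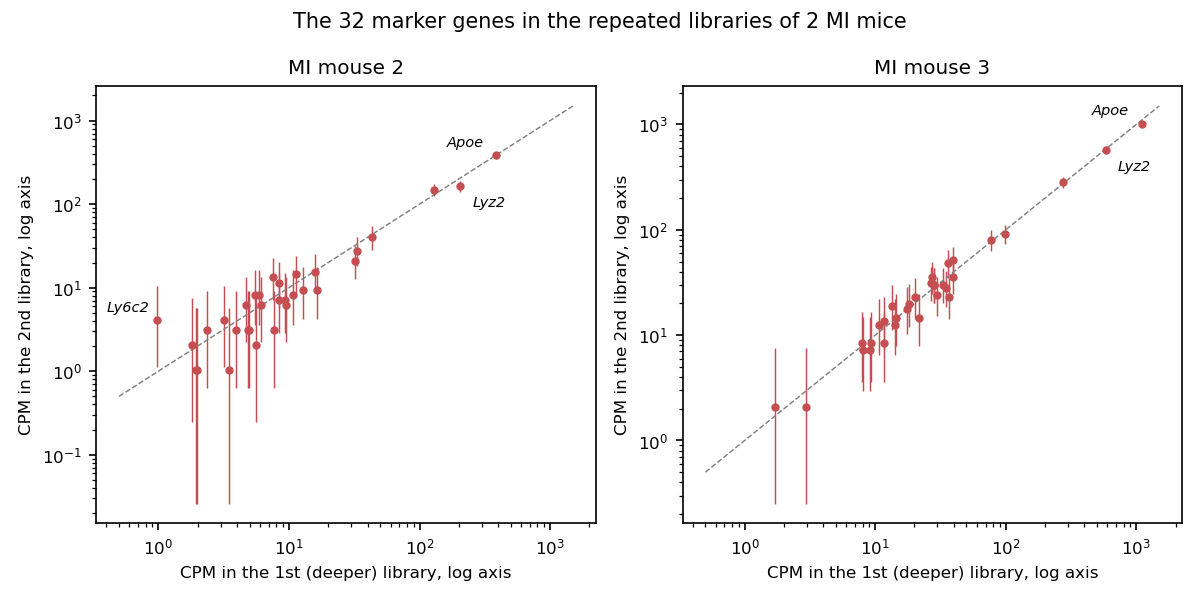
CPM of the 32 marker genes in the 2nd library (vertical) against the 1st, deeper library (horizontal) of MI mouse 2 (left) and MI mouse 3 (right), on log axes, with exact 95% intervals of the 2nd library and a dashed line of equal values. The line lies inside most intervals, and intervals widen below about 10 CPM.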

How the data were processed

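The 32 members, their groups and the related lists were chosen with earlier results of these data known. Per the submitters' processing notes, reads were checked with FastQC 0.11.9 and processed with STAR, RSEM and GRCm39. The authors deposited RSEM expected counts as whole numbers and, in a second table, log2(TPM + 1), which was used only as an alternative. Collapsing of molecular identifiers, strand and annotation release were not given in the sources used here. Of 57054 rows, 407 lacked a value in some library and were left out. Symbols came from GENCODE M21. The test on these counts was that of edgeR 4.0.16 under R 4.3.3 (filterByExpr, TMM, robust quasi-likelihood test, two-sided) in 1 fit over 10 mice, 1 library each, with Benjamini-Hochberg adjustment over 9505 genes and a threshold of 0.05. Group levels used log2(CPM + 2). All members and up to 4 genes of each related list with the smallest p in all infarcted mice against sham vehicle are named. The titles number separate mice. The procedure was tested on simulated data. Alternatives used DESeq2 1.42.0, limma 3.58.1, other scalings, libraries and filters, a replicate block, and leaving out each mouse.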

Additional observations from a re-analysis of the deposited data

Results flagged for a closer look

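In the 4 NECA-treated MI mice, 3 of the 32 members had 1 mouse set apart from the others by a gap above the 95% critical value of Dixon's ratio. Cd68 was at 16.3 CPM in mouse 2, against 12.2, 12.7 and 12.8 CPM in the other mice. Csf1r was at 57.4 CPM in mouse 4, against 74.0, 74.7 and 75.3 CPM. Laptm5 was at 27.3 CPM in mouse 4, against 35.1, 35.8 and 35.8 CPM. Chance flags about 1 in 20 such groups, and 32 members were examined. For Cd68, 20 counts in mouse 2 and 13 to 16 counts in the others are within counting error of each other. The flags of Laptm5 and of Csf1r, with 61 counts in mouse 4 and 88 to 94 in the others, were not set against counting error.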

How the results depend on the processing

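Depth limited the test: 10 of 32 members were under the count filter, and 10 counts carry an exact interval of 4.996 to 19.2 CPM. Among alternatives that kept all mice, these called members, where the fit reported called 0. For MI against sham vehicle there were 6 without a count filter, 1 with DESeq2 and 1 with the replicate block; for NECA-treated MI against sham vehicle 2 without a filter, 1 in a fit of those groups alone and 1 with the replicate block; and for all infarcted mice 9, 2 and 1 without a filter, with DESeq2 and with the replicate block. For NECA-treated MI against MI no alternative called a member. Over all genes, MI against sham vehicle called 7, and 15 with both libraries summed, 191 without a filter, 13 with DESeq2, 0 with limma and 0 in a fit of those groups alone. NECA-treated MI against MI called 0, and 1 with summed libraries, 1 with the 1st libraries only and 8 without a filter. NECA-treated MI against sham vehicle called 1, and 0 with summed libraries, 0 with the 1st libraries only, 4 without scaling, 43 without a filter, 2 with DESeq2, 0 with limma, 7 in a fit of those groups alone and 4 with the replicate block. All infarcted mice called 10, and 5 with summed libraries, 5 with the 1st libraries only, 137 without a filter, 18 with DESeq2 and 1 with limma. Without a filter 20308 genes were tested, and a fit of 2 groups holds fewer mice; the cause of the other moves was not tested. The recruited average in MI was 0.91, and 1.37 with a pseudocount of 0.5.

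Leaving out each mouse gave, for MI against sham vehicle, 0 to 50 genes, 0 to 3 members and a median member log2 fold change of 0.55 (without MI mouse 3) to 1.62 (without sham vehicle mouse 3). NECA-treated MI against MI gave 0 to 2 genes, 0 to 0 members and medians of -0.39 to 0.37. NECA-treated MI against sham vehicle gave 0 to 7 genes, 0 to 1 members and 0.75 to 1.504. All infarcted mice gave 1 to 27 genes, 0 to 2 members and 0.81 to 1.54. The replicate numbers gave no clear sign of pairing: deviations of same-numbered mice correlated above 0.1 in 2 of 9 pairs, and 1 of 10 mice correlated best with its own number. NECA-treated mouse 4 has no same-numbered mouse in another group, and deviations from the mean of so few mice are not independent. The check therefore cannot exclude a pairing.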
